A study of Mus musculus with 2 samples.

Results

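Several Sprouty, Spred, Dusp and Lrig genes encode inhibitors that many cells switch on in answer to growth factors and that then restrain the same signal. The 10 genes described here are Spry1, Spry2, Spry4, Spred1, Spred2, Dusp4, Dusp5, Dusp6, Lrig1 and Lrig3. They were chosen by family, with their differences between these same arrays already known, so their values are a description and carry no test. All 10 were among the 11397 measured genes, out of 18193 genes with a probe set of their own, and together they had 29 probe sets.

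The 2 arrays were hybridised with RNA of primary myoblasts, the precursors of muscle fibres, isolated from newborn Sv129 mice. One culture had received Wnt3a at 100 ng/ml, a Wnt ligand that acts through β-catenin, and the control culture had not. Both were held for 4 hours in DMEM with 2% horse serum on a laminin and collagen coating. With 1 array per condition there was no replicate, no standard deviation and no p-value, and the sources used here do not say whether the RNA came from single or pooled animals.

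Receptor tyrosine kinases, such as those for FGF, HGF and EGF, act through Ras, Raf, MEK and the kinase ERK. Sprouty proteins and the related Spred proteins act between receptor and Raf. The dual-specificity phosphatases of the Dusp family remove the activating phosphates from ERK and related kinases, and Lrig proteins are membrane proteins that bind receptors at the cell surface. In mouse muscle, Spry1 is known for its part in the return of satellite cells, the muscle stem cells, to quiescence.

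Intensities are the deposited linear values of a probe set. Differences are Wnt3a minus control on the scale of log2(intensity + 1), folds are taken on that same scale, and each gene is represented by its brightest probe set. Genes are called measured if either array gave that probe set a log2 value of at least 6 (intensity 63). This floor is a set level of brightness and does not mark detection.

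Lrig1, Spry1 and Dusp4 were higher with Wnt3a, by 2.23-fold, 1.90-fold and 1.73-fold. Dusp5 and Dusp6 were lower, by 1.43-fold and 1.29-fold. Spred2 and Lrig3 were higher by 1.25-fold each, and Spry2, Spry4 and Spred1 differed by less than 0.05 on the log2 scale. At a threshold of 1.5-fold, 3 of the 10 genes were higher, against 0.886% of all measured genes, and 0 were lower, against 0.342%. At 2-fold 1 gene was higher, against 0.254% of all measured genes. These shares are background only, because the genes were chosen with this contrast known. RNA of a whole culture was measured, so a change in the mix of cells and a change of RNA per cell cannot be told apart.

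**Figure D1:**
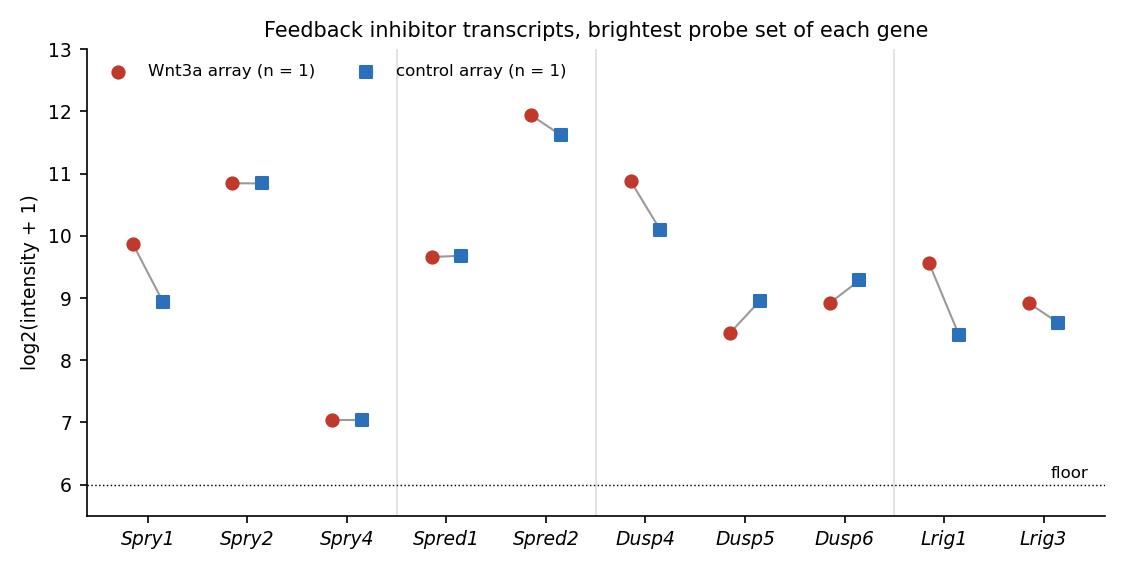
Level of each gene on the Wnt3a array (red circles) and the control array (blue squares), as log2(intensity + 1) of its brightest probe set, with families separated by vertical lines and the floor of 6 dotted. Each point is 1 array, and levels of different genes cannot be compared because each has its own probes. The Wnt3a point lies above the control point for Lrig1, Spry1 and Dusp4, and below it for Dusp5 and Dusp6.

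The median difference of the 10 genes was 0.16, beside -0.0057 over all measured genes. It moved with the processing, to 0.0038 without probe sets that may detect more than 1 transcript, 0.07 as a mean over probe sets, 0.32 with a floor of 8 and 0.35 with scaling on spike-in controls. Their median difference in size was 0.34, beside 0.085 over all measured genes. The band from -0.33 to 0.33 held the central 95% of measured genes, and 5 of the 10 genes, Lrig1, Spry1, Dusp4, Dusp5 and Dusp6, lay outside. Nearest to the 1.5-fold threshold of 0.58 were Dusp4 at 0.79 inside it and Dusp5 at -0.52 outside it.

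**Figure D2:**
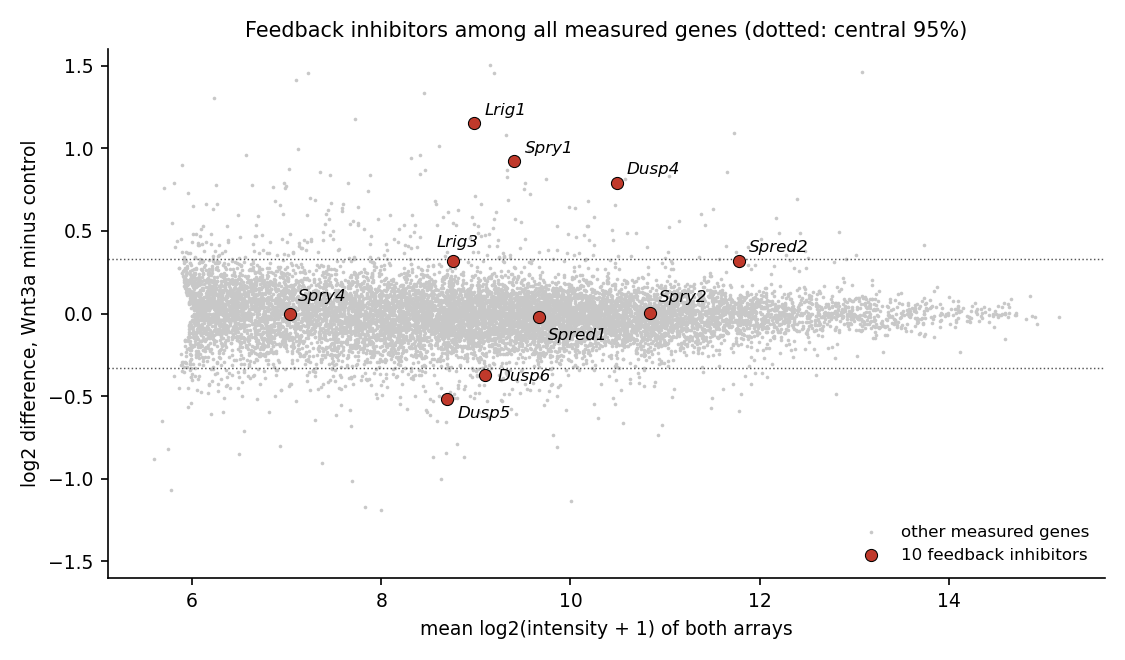
Difference between the Wnt3a and control arrays (vertical, log2) against the mean level of both arrays (horizontal, log2), with 11397 measured genes in grey, of which 18 lie beyond the vertical axis, and the 10 feedback inhibitors in red. Dotted lines mark the central 95% of measured genes, from -0.33 to 0.33. Lrig1, Spry1 and Dusp4 stand above the band at 0.79 or more. Dusp6 stands just below it at -0.37, and Dusp5 further below at -0.52.

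The Lrig genes, which act at the receptor, were both higher with Wnt3a. Lrig1 promotes the breakdown of ErbB receptors and of the HGF receptor Met. Its brightest probe set (1449893_a_at) had an intensity of 753 with Wnt3a and 338 in the control, a difference of 1.15. A second probe set (1434210_s_at) had 659 with Wnt3a and 338 in the control, a difference of 0.96. Both were higher with Wnt3a, while the dimmest, which neither array brought to the floor, gave 0.15. The brighter pair are of kinds (_a_at, _s_at) that may detect more than 1 transcript, and without such probe sets Lrig1 was not measured and 2 genes in place of 3 were 1.5-fold higher. Only 25 measured genes, 0.219%, had a larger positive difference than Lrig1. Among the 2142 measured genes within 0.5 of its mean level, 2 differed more in size.

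Lrig3, a relative of Lrig1, showed a smaller difference in the same direction. Its brightest probe set had 483 with Wnt3a and 387 in the control, a difference of 0.32, and its second gave 0.27. Its dimmest, below the floor, had the same value on both arrays. Of the 2103 measured genes of like brightness, 132 (6.28%) differed more in size, so the Lrig3 difference was within the range that many genes showed. The difference of Lrig1 exceeded that of Lrig3 by 0.84.

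Of the Sprouty genes, Spry1 was higher, Spry2 differed by under 0.05 on both of its probe sets, and Spry4 gave no shared direction. Spry1 encodes a membrane-associated inhibitor of Ras and ERK signalling. It had 933 with Wnt3a and 491 in the control on its single probe set (1415874_at), a difference of 0.92. That difference was exceeded in the positive direction by 34 measured genes (0.298%), and in size by 5 of 2203 genes of like brightness.

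Spry2, which restrains the same pathway, was almost equal on the arrays. It had 1839.7 with Wnt3a and 1835 in the control, a difference of 0.0038. Its second probe set gave 0.04 but lay close to the floor, at 63.5 with Wnt3a and 61.8 in the control. Spry4, another inhibitor of the same family, had 129.8 on both arrays. Its second probe set at the floor gave -0.15, and those below the floor gave 0.13 and -0.30, so its 4 probe sets did not share a direction. The difference of Spry1 exceeded that of Spry2 by 0.92.

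Identical values on both arrays, as for Spry4, were found for 3 of the 29 probe sets (10.3%), and for 1689 of all 45101 probe sets (3.74%). Apart from the Spry4 probe set these were a dim one of Lrig3 and 1 of Spred1. The sources used here do not say how identical values arose, and such a difference of 0 does not show that a transcript was stable.

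The Spred genes, whose products bind neurofibromin and bring this inhibitor of Ras to the membrane, differed little. Spred1 was measured by 8 probe sets, the most of the 10 genes. Its brightest had 808 with Wnt3a and 819 in the control, a difference of -0.02. The others ran from -0.27 to 0.23, with 2 probe sets higher, 5 lower and 1 equal over all 8. The value of 0.23 came from a probe set below the floor, and those at the floor reached 0.01 at most. The mean over all 8 was -0.03.

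Spred2 had 3928 with Wnt3a and 3146 in the control on its brightest probe set, a difference of 0.32. Its remaining probe sets gave 0.20, 0.07, 0.03 and -0.06, and the mean over all 5 was 0.11. The 1.25-fold difference of Spred2 thus rested on its brightest probe set. Among 852 measured genes of like brightness 28 (3.29%) differed more in size.

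**Figure D3:**
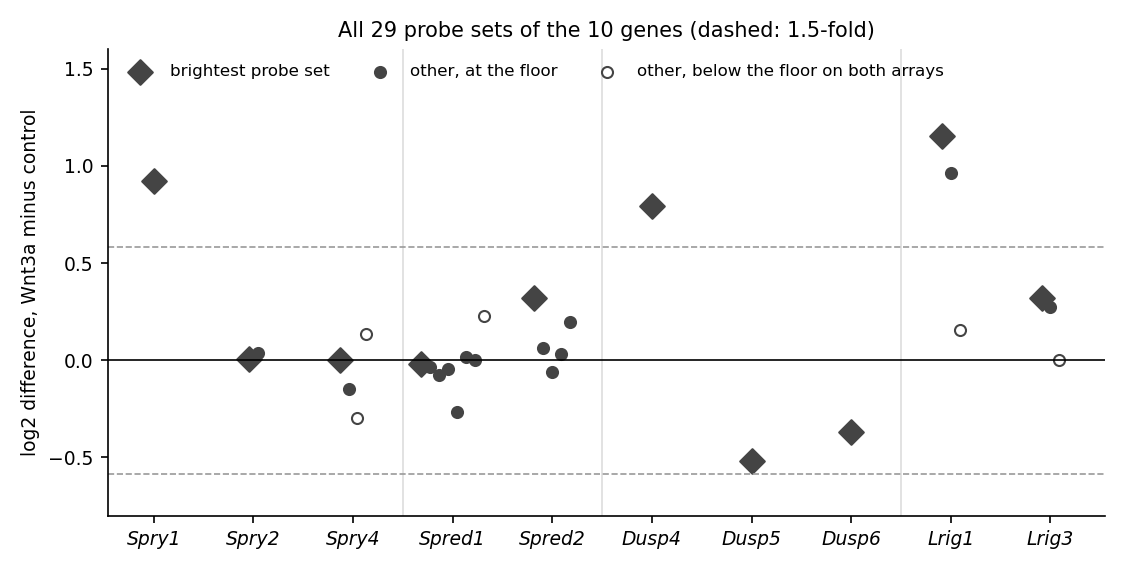
Difference between the Wnt3a and control arrays (log2) for each of the 29 probe sets, with diamonds for the brightest of a gene, filled circles for others at the floor and open circles for those below it on both arrays. Dashed lines mark 1.5-fold. Both brighter Lrig1 probe sets lie above the upper line, and Spry1, Dusp4, Dusp5 and Dusp6 each rest on 1 probe set. The Spred1 probe sets lie near 0, with 5 of 8 below it.

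The Dusp phosphatases differed in opposite directions. Dusp4, a nuclear phosphatase for ERK, JNK and p38 kinases, was higher with Wnt3a. It had 1888 with Wnt3a and 1089.8 in the control on its single probe set (1428834_at), a difference of 0.79. Only 48 measured genes (0.421%) had a larger positive difference, and 3 of 1593 genes of like brightness differed more in size.

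Dusp5, a nuclear phosphatase specific for ERK, was lower. It had 346 with Wnt3a and 496 in the control (1437199_at), a difference of -0.52. Of all measured genes 58 (0.509%) had a larger negative difference. Dusp6, the cytoplasmic phosphatase specific for ERK, had 482 with Wnt3a and 623 in the control (1415834_at), a difference of -0.37. It was passed in the negative direction by 218 genes (1.91%). Among genes of like brightness 2.24% differed more in size than Dusp5 and 4.00% more than Dusp6.

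The difference of Dusp4 exceeded that of Dusp5 by 1.31 and that of Dusp6 by 1.16. A shift common to all probe sets of an array cancels in this contrast. Each of these genes had 1 probe set only, so no second probe set measured it. Over all genes with at least 2 probe sets at the floor, of which there were 5084, the pooled SD between probe sets of a gene was 0.12, which covers probe noise and no noise between cultures.

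The promoters of 4 of these genes are shown because neighbours in role differed here, with Lrig1 and Spry1 higher, Spry2 nearly equal and Dusp5 lower. Windows of 300 bases, from 250 before to 50 after the start, were taken from RefSeq for 8 of the 10 genes. They are of GRCm38.p6, a C57BL/6J assembly and not the Sv129 strain of these cells. Dusp4 had no promoter entry, and Spry4 was left out of the search, so its promoter is not described. Capitals mark matches, on either strand, to the TCF/LEF motif (CTTTG followed by AA, AT, TA or TT), the ETS core CCGGAA and the CArG box, the binding motif of serum response factor. These motifs were picked after the sequences had been seen. The windows are Lrig1 chr6:94700096-94700395 (minus strand), Spry1 chr3:37639697-37639996 (plus), Spry2 chr14:105896770-105897069 (minus) and Dusp5 chr19:53528895-53529194 (plus).
Lrig1: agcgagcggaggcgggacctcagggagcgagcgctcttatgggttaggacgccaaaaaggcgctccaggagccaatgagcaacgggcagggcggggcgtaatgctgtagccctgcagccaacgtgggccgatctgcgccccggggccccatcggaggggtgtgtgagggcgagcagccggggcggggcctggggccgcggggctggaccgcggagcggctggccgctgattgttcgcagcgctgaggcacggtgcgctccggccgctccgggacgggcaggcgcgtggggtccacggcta
Spry1: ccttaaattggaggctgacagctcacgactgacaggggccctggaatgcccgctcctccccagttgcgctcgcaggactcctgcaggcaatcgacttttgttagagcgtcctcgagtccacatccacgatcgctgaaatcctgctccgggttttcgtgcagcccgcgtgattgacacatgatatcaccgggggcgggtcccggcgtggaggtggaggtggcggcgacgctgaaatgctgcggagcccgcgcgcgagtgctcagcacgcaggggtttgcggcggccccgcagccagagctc
Spry2: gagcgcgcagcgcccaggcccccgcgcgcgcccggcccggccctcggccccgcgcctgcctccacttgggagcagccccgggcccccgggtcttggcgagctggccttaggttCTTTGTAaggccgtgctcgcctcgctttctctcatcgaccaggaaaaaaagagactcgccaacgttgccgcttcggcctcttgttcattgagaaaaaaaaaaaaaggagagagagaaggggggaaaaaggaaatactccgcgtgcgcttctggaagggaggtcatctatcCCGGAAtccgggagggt
Dusp5: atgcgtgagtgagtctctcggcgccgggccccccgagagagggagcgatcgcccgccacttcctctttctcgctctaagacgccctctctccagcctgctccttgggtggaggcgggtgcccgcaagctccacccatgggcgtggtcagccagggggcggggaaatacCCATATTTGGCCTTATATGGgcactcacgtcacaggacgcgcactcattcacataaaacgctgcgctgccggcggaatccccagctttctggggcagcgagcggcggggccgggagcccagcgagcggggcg

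Matches were found in 2 of the 8 promoters. Dusp5 held CArG boxes that begin 82 and 72 bases upstream of the start and lie end to end. A CArG box was present in 1.63% of all 32851 promoters of this length, and 2 or more in 6 of them (0.0183%). Spry2 held a TCF/LEF match 137 bases upstream and an ETS match 33 bases downstream of the start, motifs found in 16.9% and 14.9% of all promoters. The windows of Lrig1, Spry1, Dusp6, Spred1, Spred2 and Lrig3 held none of these letters. These shares are background only, because the motifs were picked after the sequences had been seen. A match is a string of letters and no evidence of binding in these cells.

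As a set, other genes of the same families differed less, with a median difference in size of 0.09 beside 0.34 for the 10. The 10 were chosen with this contrast known, so the gap is a description only. Single genes overlapped, as Dusp1 and Lrig2 differed more in size than Spry2, Spry4 and Spred1. Of 13 further Sprouty, Spred, Dusp and Lrig genes 12 were measured, and 0 differed by 1.5-fold. Their median difference was -0.05, with 5 higher and 7 lower. Dusp1, an immediate early phosphatase for p38, JNK and ERK, had 336 with Wnt3a and 406 in the control, a difference of -0.27. Lrig2 was at 0.20 (0.08 on its other probe set), and Dusp9 at -0.13, with -0.29 as the lowest of its 3 probe sets. Dusp3 was at 0.12, with -0.12 as its lowest. Spry3 was below the floor on both arrays.

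Brakes of other kinds showed mostly small differences. Their median was -0.11 among 13 measured of 14 listed, 3 of them higher and 10 lower. The median difference in size was 0.13, beside 0.085 over all measured genes, whose share of lower genes was not counted. Dok1, an adaptor that recruits the Ras inhibitor RasGAP, had 427 with Wnt3a and 645 in the control on its single probe set. Its difference of -0.60 (1.51-fold) was the only one in this list past 1.5-fold. Errfi1, an inhibitor of EGF receptor family kinases, had 5725 with Wnt3a and 4565 in the control, a difference of 0.33, and 0.28 on its other probe set. Paqr3, which holds Raf at the Golgi, was at -0.27. Socs3, an inhibitor of cytokine receptor signalling, was at 0.23, with -0.03 as its lowest probe set.

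Upstream of these inhibitors, receptor and kinase transcripts differed little, with the exception of Met. Of 12 measured receptor tyrosine kinases 7 were higher, 4 lower and 0 past 1.5-fold on the brightest probe set, with a median of 0.03. Met, the HGF receptor and a partner of Lrig1, had 2678 with Wnt3a and 3669 in the control, a difference of -0.45, with -0.72 on its other probe set. Ntrk2 (0.24), Fgfr4 (0.19) and Erbb3 (0.13) were slightly higher. Their probe sets ran from -0.11 to 0.40 for Ntrk2, 0.03 to 0.21 for Fgfr4 and -0.05 to 0.13 for Erbb3.

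The 13 measured adaptor, Ras, Raf and MEK genes lay between -0.12 and 0.16, with a median of 0.04, and the widest were Ksr1 (0.16), Frs3 (0.14), Shc1 (0.12) and Sos2 (-0.12).

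Genes that ERK signalling induces in many cells showed mostly small differences in both directions, with the exception of Myc. The median of the 17 measured was -0.08, beside -0.0057 over all measured genes, with 6 higher and 11 lower. Their median difference in size was 0.12, beside 0.085 over all measured genes. The share of all measured genes that were lower was not counted. Myc, the growth-promoting transcription factor, had 695 with Wnt3a and 1525 in the control, a difference of -1.13, and was the only one past 1.5-fold. Junb (-0.45) and Ier2 (-0.24), both immediate early genes, were lower by less. Egr3, another immediate early factor, was at 0.22 and 0.29 on its probe sets.

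**Figure D4:**
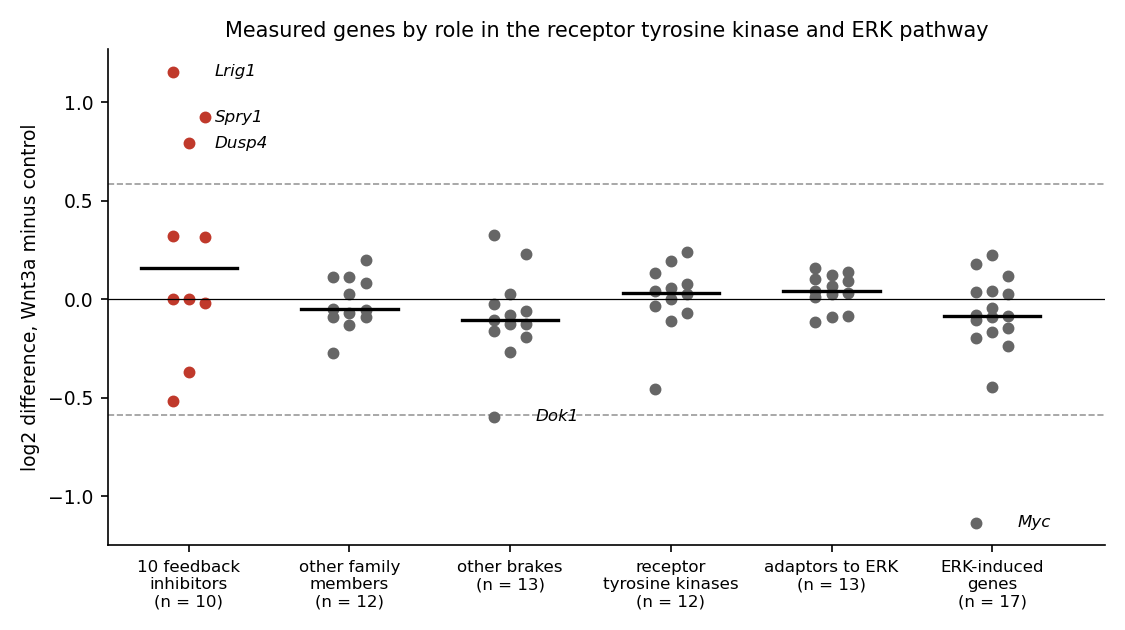
Difference between the Wnt3a and control arrays (log2) of measured genes, grouped by role, with 1 point per gene, horizontal bars for medians and dashed lines at 1.5-fold. Genes past a dashed line are named, and these are Lrig1, Spry1 and Dusp4 above, and Dok1 and Myc below.

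The treatment and the cells were checked on a few other genes. Axin2, a standard Wnt target, had 1219.9 with Wnt3a and 98.7 in the control, and Fst, encoding follistatin, had 6005 with Wnt3a and 1113 in the control. They were the largest differences of a list of 11 Wnt targets, which was chosen with earlier results of these data known. Of these 7 were measured and 4 were at least 1.5-fold higher, against 0.886% of all measured genes. Lgr5 (1.30) was among them, but its control value lay below the floor and its other probe set gave 0.30. Bambi (0.66) rested on 1 probe set, and Tcf7 had no probe set of its own. Nkd1 (-0.20) and Lef1 (-0.13) were lower, and Notum, Rnf43 and Sp5 were below the floor. All 7 myoblast markers were measured, with differences from -0.26 to 0.49. Of the other markers, 1 of 7 for fibroblasts, 4 of 7 for leukocytes, 2 of 7 for endothelium, 2 of 7 for smooth muscle and pericytes and 3 of 5 for Schwann cells reached the floor. Defining markers below it on both arrays included Pdgfra, Ptprc, Pecam1 and Myh11. Those that reached it included Csf1r of leukocytes (123 with Wnt3a, 126 in the control), Notch3 (973 with Wnt3a, 1045 in the control) and Cspg4 (551 with Wnt3a, 642 in the control), both of pericytes, and Kdr of endothelium, at 65.8 on both arrays. Tek of endothelium, with 39.5 with Wnt3a and 70.4 in the control, was the only one of these markers of other cell types to differ by 1.5-fold, and its Wnt3a value lay below the floor. Sox10 of the Schwann cell list had 171 with Wnt3a and 162 in the control. Summed intensities were 9545 with Wnt3a and 11194 in the control for the fibroblast list, of which Col3a1 alone gave 9335 with Wnt3a and 10993 in the control. They were 441 with Wnt3a and 466 in the control for leukocytes, 238 with Wnt3a and 269 in the control for endothelium, and 1729 with Wnt3a and 1881 in the control for smooth muscle and pericytes. Schwann cell markers summed to 713 with Wnt3a and 667 in the control. Their part in the differences above was not tested.

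Directions are relative to the bulk of probe sets, whose median difference was 0. The 42 spike-in control probe sets, added in fixed amounts during preparation, were all lower on the Wnt3a array, with a median of -0.19. Scaling on them would add 0.19 to every difference. Lrig1 would then stand at 1.34, Spry1 at 1.11 and Dusp4 at 0.98, and Dusp5 and Dusp6 would stay negative at -0.33 and -0.18. Spred1 would become positive at 0.17, and the median of all measured genes would be 0.19. The medians of the other family genes (-0.05), the other brakes (-0.11) and the ERK-induced genes (-0.08) would also turn positive. Their signs therefore depend on the scaling.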

How the data were processed

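The deposited table holds 1 intensity per probe set and array, on a linear scale from 7.07 to 36604 with Wnt3a and from 7.09 to 37075 in the control. Per the submitters' processing notes the authors used RMA, affy and limma, with no versions or settings. Labelled cRNA was made with an Affymetrix 3′ kit, per the labels' protocols, so only the 3′ end of a transcript is read. The genome build and the step back to a linear scale are not given in the sources used here. Of 45101 probe sets, 64 controls were left out, and 34945 had exactly 1 gene in the platform annotation from GEO, which can be old. The Entrez identifiers of all 10 genes carried the same symbols in RefSeq.

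Values were taken as log2(intensity + 1), and the probe set with the highest mean stood for its gene. No test was possible with 1 array per group, and the number of arrays limits the precision. The members and gene lists were chosen with earlier results of these data known. The text names all 10 members and, of each pathway list, the 4 measured genes with the largest differences. Axin2, Fst and markers serve as checks. Genes of like brightness lie within 0.5 of the mean level. The alternatives were no floor, a floor of 8, averaging a gene's probe sets, dropping those with an _s_at, _x_at or _a_at suffix (which may detect more than 1 transcript), median, quantile, loess (span 0.3) and spike-in scaling, no pseudocount, a pseudocount of 16, raising low values to the floor, and a 2-fold threshold. The steps were tested on simulated data. Some genes of the lists are not reported here. The tools were statsmodels 0.14.6, pandas 2.3.3 and numpy 2.4.6 under Python 3.11.15.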

Additional observations from a re-analysis of the deposited data

How the results depend on the processing

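No replicate exists, so neither noise between cultures nor noise between hybridisations could be measured. The counts of 3 higher and 0 lower genes at 1.5-fold stayed as they were in 10 of 11 alternative settings at that threshold. Dropping the suffixed probe sets, which may detect more than 1 transcript, gave 2 higher, because the only Lrig1 probe set then left lay below the floor. A threshold of 2-fold gave 1 higher gene. The median difference of 0.16 became 0.32 with a floor of 8, where Spry4 dropped out, 0.0038 without the suffixed probe sets, and 0.35 with spike-in scaling. With the mean of all probe sets it was 0.07. Of 108 differences of single genes under the 11 settings, 95 moved by less than 0.12, the SD between probe sets of a gene, and 13 moved by more. Several settings could not change these values. All 10 brightest probe sets lay above the floor of 6 on both arrays, and the median over all probe sets was already 0. Averaging could not change the 4 genes with 1 probe set, and spike-in scaling moves every gene by 0.19. The counts of unchanged values and settings are therefore no measure of robustness. None of the 3 genes past 1.5-fold changed sign. Over all measured genes, 101 higher and 39 lower at 1.5-fold (72.1% higher) became 222 and 17 (92.9% higher) with spike-in scaling. No paired analysis was possible because each group has 1 array.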
